A study of Mus musculus with 10 samples.

Results

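The transcripts of CD4+ CD8+ double-positive (DP) thymocytes that lack the transcription factor HEB were set against those of control DP thymocytes. The tested arrays were 2 of HEBKO mice (HEBflox/flox cd4-cre+), each array from 1 mouse, and the controls were 3 arrays of WT mice (wild-type cd4-cre+), 5 of the 10 arrays of the series. All mice, controls included, carried the Cd4-cre transgene and were 8 weeks old. The cells were sorted from the thymus by their surface CD4 and CD8 at a stated purity above 98%, and total RNA was hybridised to an Affymetrix whole-transcript array. The remaining arrays, of E2AKO (E2Aflox/flox Cd4-cre+, n = 2) and DKO (E2Aflox/flox HEBflox/flox cd4-cre+, n = 3) mice, share the estimate of the spread and serve as a comparison for the genes below. Cd4-cre removes the floxed gene in thymocytes from about the onset of CD4 expression onward, so messenger RNA and protein made earlier can persist into the DP stage. Of 19937 genes named by a single symbol, 13138 passed a filter on dim signals, which asks for 2 or more arrays above their own 40th percentile, and were tested, and the other 6799 were left out. At that edge, Ccl7 and Mfap4 were just inside and Slc6a4 and Olfr92 just outside.

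HEB, the product of Tcf12, is a basic helix-loop-helix protein of the E protein family. E proteins bind the E-box, a short DNA motif, as dimers with one another, and Id proteins pair with them and block that binding. In the thymus HEB and its relative E2A (the product of Tcf3) act through the DP stage, in which cells rearrange their receptor alpha chain genes and wait for selection by the receptor they make.

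The arrays had closely similar levels, with a median intensity of 92.6 to 98.6. Cd4, Cd8a, Cd8b1 and Rag1, which define DP cells, lay at or above the 98.1 percentile of the array in all 5 HEBKO and WT arrays. Among defining markers of other cells, Ms4a1 (B cells), Csf1r and Lyz2 (myeloid cells), Itgax (dendritic cells), Psmb11 and Krt5 (thymic epithelium), Ncr1 and Eomes (natural killer cells) lay below the 40th percentile in all 5. Pax5 (B cells) and Foxn1 (thymic epithelium) lay above it in 4 of the 5, Epcam (epithelium) in 2, and Krt8 (epithelium) and Alas2 (erythroid cells) in all 5. The summed intensity over 12 B cell markers was 900 and 837 in HEBKO against 901 to 922 in WT, and over 24 myeloid and dendritic cell markers it was 1407 and 1398 in HEBKO against 1400 to 1598 in WT. Of these markers, 6 of the 12 and 16 of the 24 lay below the 40th percentile in all 5 arrays. Much of both sums can therefore be array background, and they do not measure the amount of these cells. The DP markers of the label were present in both groups, and some markers of other cells had signals at or above the filter level. HEBKO 1 was among the arrays with high Xist (11.82), and HEBKO 2 was not (5.00), against 5.45, 12.20 and 5.28 in WT 1 to 3, so both groups held both sexes. The HEBKO arrays differed in further genes described below, and each is therefore given by itself throughout.

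Tcf12 had a log2 intensity of 11.15 and 11.48 in HEBKO 1 and 2, against 11.91, 11.74 and 11.86 in WT 1 to 3. The groups did not overlap, and HEBKO 1 was the lower of the HEBKO arrays. The mean difference was -0.52 ± 0.12 (log2, standard error of the limma fit), or 69.6% of WT, with an adjusted p of 0.0657, so the targeted transcript itself was not among the calls. The labels do not say which exons were floxed, and a probe set of this array type spans many exons, so the remaining signal does not measure intact messenger RNA. Tcf3 stood at 10.02 and 10.06 in HEBKO, against 9.65, 9.85 and 9.63 in WT, again without overlap and in the opposite direction (0.33 ± 0.13, adjusted p = 0.216). Of 7 E and Id protein genes tested limma called 0, with 1 higher and 1 lower at an unadjusted p under 0.05, and the median of the list was 0.09 beside -0.0029 over all tested genes.

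The gene next to Tcf12 on chromosome 9 showed the largest fall among the called genes. Myzap, which encodes a junction protein known from heart muscle, was 6.33 and 5.79 in HEBKO, against 7.88, 8.03 and 7.77 in WT. Both HEBKO arrays lay far below every WT array, and HEBKO 2, with the lower value, was also below the filter level, where array signals flatten, so the fall can be larger than measured. The difference was -1.83 ± 0.17 (95% interval -2.19 to -1.47), a 3.56-fold fall (adjusted p = 0.00194, the smallest of the comparison). On the far side of Myzap, Polr2m, a gene of RNA polymerase II regulation, was 9.40 and 9.60 in HEBKO against 9.31 to 9.59 in WT. On the other side of Tcf12, Zfp280d was 10.58 and 11.13 in HEBKO against 10.70 to 11.03 in WT, so neither of these neighbours separated the groups. Mns1, a gene of cilia and flagella 2 tested genes beyond Tcf12, was 9.31 and 9.82 in HEBKO against 9.97 to 10.39 in WT (-0.68 ± 0.20, adjusted p = 0.126). Mindy2, a deubiquitinase gene 4 tested genes to the other side, was 8.33 and 8.92 in HEBKO against 9.08 to 9.47 in WT (-0.71 ± 0.18, adjusted p = 0.0906). Both lay below WT in each HEBKO array without passing the test. Myzap itself was 5.94, 5.85 and 6.25 in DKO, close to HEBKO, while E2AKO, at 7.94 and 8.07, lay within or just above the WT range. For Myzap an effect of the altered Tcf12 locus beside it and an effect of the missing protein cannot be told apart in these arrays. Polr2m, Zfp280d, Mns1 and Mindy2 were named for their position after their values were seen.

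**Figure D1:**
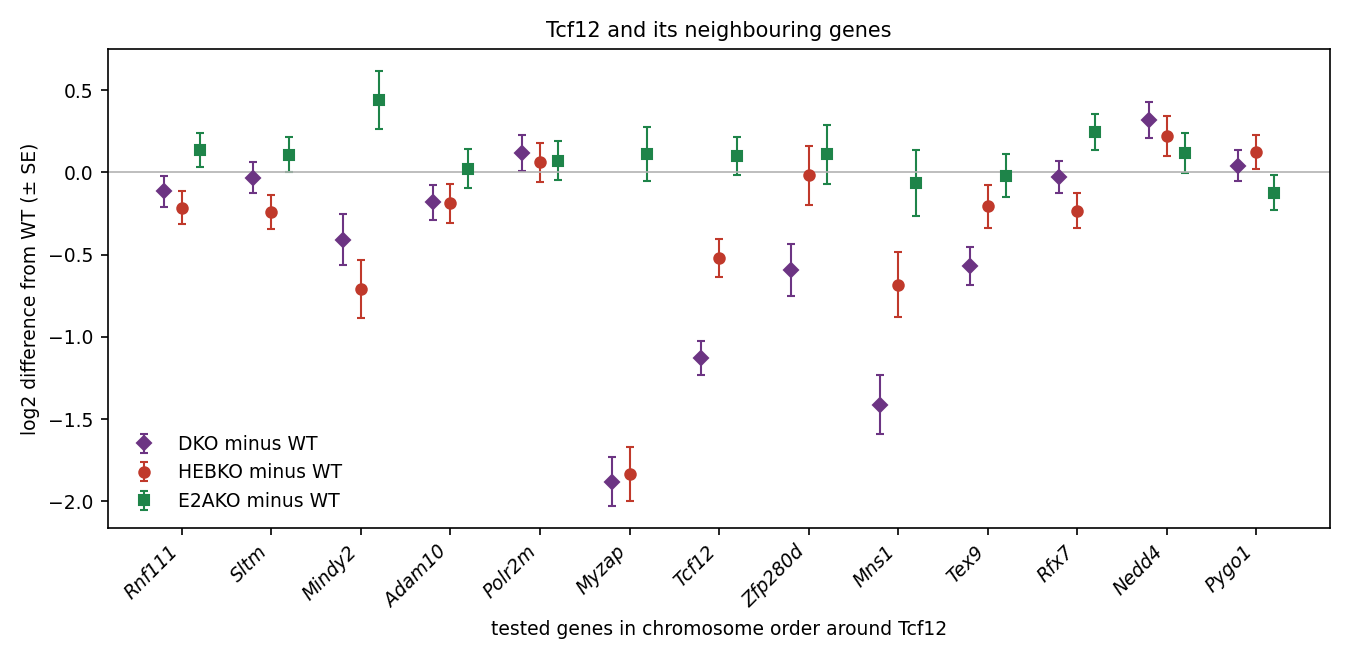
Difference from WT (log2, y axis) of Tcf12 and the 6 tested genes on each side of it in chromosome order (x axis), for DKO (diamonds), HEBKO (circles) and E2AKO (squares), with the standard error of the fit as bars. Myzap, next to Tcf12, is the lowest point in HEBKO (-1.83) and lies lower than Tcf12 itself (-0.52).

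Loss of HEB changed 119 of the 13138 tested genes at an adjusted p under 0.05 (0.906% called, limma with Benjamini-Hochberg adjustment), 36 up (0.274%) and 83 down (0.632%). Most calls were modest and near the threshold. Only 5 rises and 16 falls reached 2-fold, and 83 of the 119 had an adjusted p of 0.02 or more. In all 119 the HEBKO and WT arrays did not overlap, which selection by this test nearly requires, so it adds no support. Of all tested genes 30.5% show no overlap. HEBKO 1 stood farther from the WT mean in 59 of the 83 falls and in 24 of the 36 rises, beside 48.9% of all tested genes. The median fall was -0.81 in HEBKO 1 and -0.64 in HEBKO 2, and the median rise was 0.83 in HEBKO 1 and 0.69 in HEBKO 2. Without adjustment, 2190 genes (16.7%) had a p under 0.05, with 1338 up (10.2%) and 852 down (6.49%), where 656.9 would be counted if none had changed. The share of rises is thus larger among these weaker differences than among the calls. These shares over all tested genes are the background for the counts given for each gene list below.

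How many genes were called depended on single arrays. Leaving out an array cannot turn the direction of a called gene, since the groups do not overlap. Without HEBKO 1 only 2 genes passed, Myzap (-2.10) and Il21r (-1.16), which were the 2 genes called whichever of the 10 arrays was left out. In 11 others the call was lost without HEBKO 1 alone, namely Fmnl2, Plxdc1, Car2, Cldn4, Gbp4, Ldlrad3, Map3k8, Cbfa2t3, Hs6st1, Mtss1 and Atp8b4. Every other call was lost without HEBKO 1 and also without at least 1 further array. The count was 13 without WT 3, 24 without WT 1, 55 without DKO 2, 76 without DKO 1 and 496 without WT 2, of which 359 were rises. The fitted difference without HEBKO 1 is that of HEBKO 2 from the WT mean, which can be read from the levels given for each gene. A fit without HEBKO 2 also leaves 1 HEBKO array, yet it kept many more of the calls than the fit without HEBKO 1. The cause of that difference between the HEBKO arrays was not tested.

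**Figure D2:**
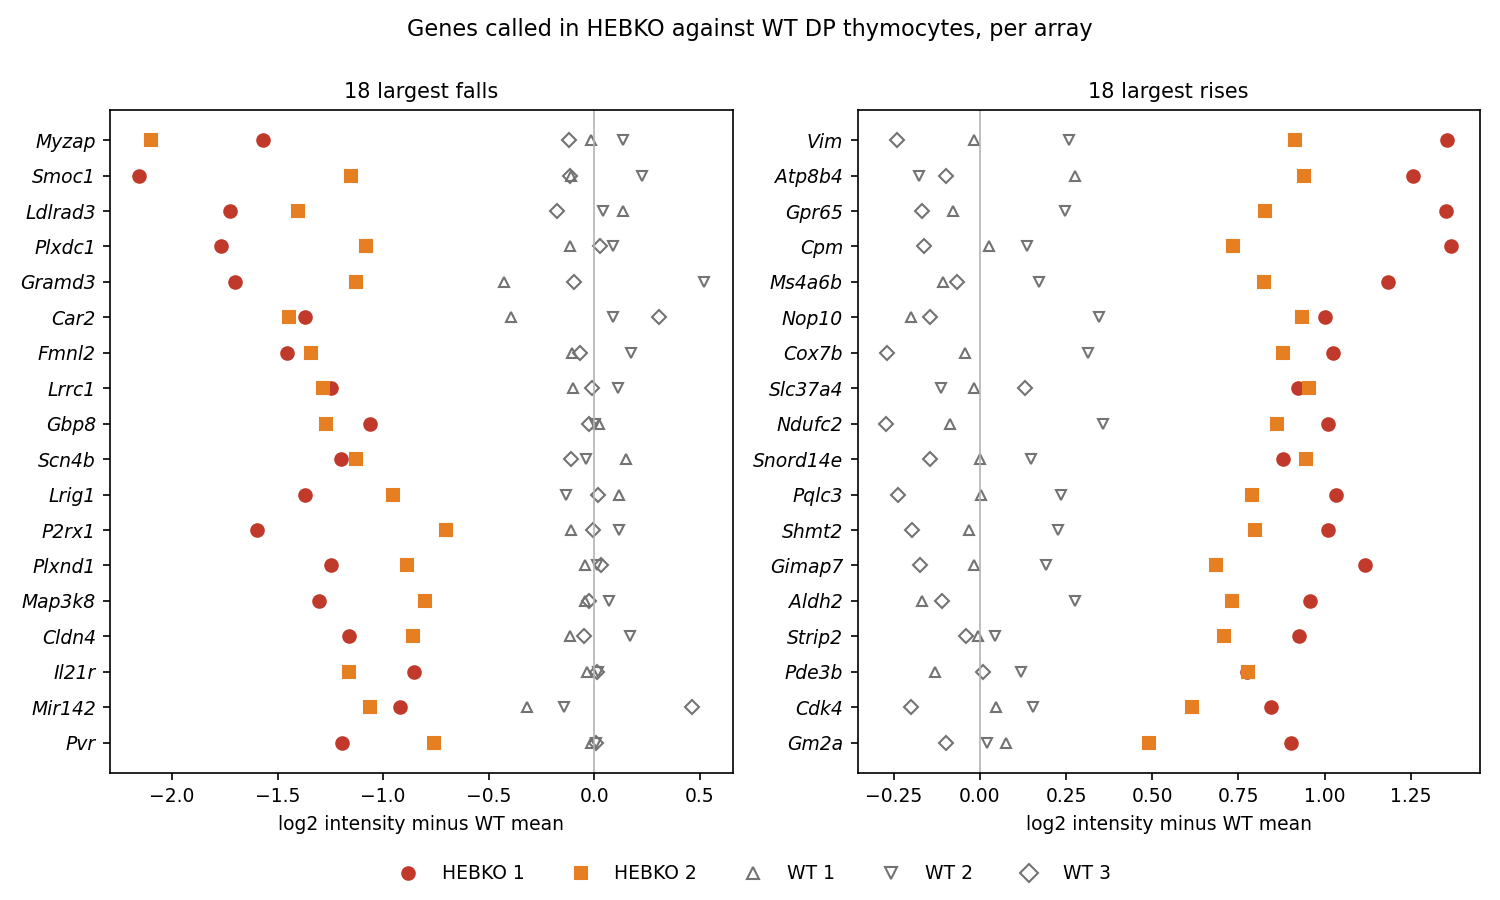
Log2 intensity minus the WT mean (x axis) of the 18 largest called falls and the 18 largest called rises with a gene name (y axis), for HEBKO 1 (circles), HEBKO 2 (squares) and WT 1 to 3 (open symbols). Each HEBKO point lies outside the WT points of its gene, and HEBKO 1 is the farther one in most genes, as in Smoc1, P2rx1 and Cpm, while Myzap, Gbp8 and Il21r are farther in HEBKO 2.

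Several genes for cell surface and secreted proteins of DP cells were among the falls. Plxnd1, a plexin that binds semaphorins and steers the migration of thymocytes, was 9.76 and 10.12 in HEBKO against 10.97, 11.02 and 11.04 in WT (-1.07 ± 0.14, adjusted p = 0.00984). Sema7a, a membrane-anchored semaphorin, was 9.01 and 9.15 in HEBKO against 9.87, 9.77 and 9.77 in WT (-0.72 ± 0.11, adjusted p = 0.0193). Both genes were tightly placed in WT and lower by more than the spread in each HEBKO array, and they were the 2 of 20 tested plexin, semaphorin and neuropilin genes called, in a list with a median of -0.05. Smoc1, a secreted calcium-binding protein of the extracellular matrix, was 6.93 and 7.93 in HEBKO against 8.97, 9.31 and 8.97 in WT (-1.66 ± 0.25, adjusted p = 0.0175). F13a1, the A chain of coagulation factor XIII, was 9.88 and 10.13 in HEBKO against 10.89, 10.77 and 10.66 in WT (-0.77 ± 0.14, adjusted p = 0.0282). The Smoc1 arrays of HEBKO lay a full log2 unit apart, those of F13a1 close together. Ldlrad3 (-1.57 ± 0.22) and Plxdc1 (-1.43 ± 0.18), which encode membrane proteins with a low-density lipoprotein receptor domain and a plexin-like domain, fell too. The calls of Plxnd1 were lost without HEBKO 1 or WT 3, and those of Sema7a, Smoc1 and F13a1 without HEBKO 1, WT 1 or WT 3.

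Cldn4, a claudin of tight junctions that is also used as a marker of thymic epithelium, was 7.25 and 7.55 in HEBKO against 8.30, 8.58 and 8.36 in WT (-1.01 ± 0.14, adjusted p = 0.00984). Of 13 tested genes of the list of 17 epithelial markers it was the 1 called, 5 were lower and 0 higher at an unadjusted p under 0.05, and the list had a median of -0.20. Summed over the 17, their intensity was 1846 and 1771 in HEBKO against 2105 to 2286 in WT, a sum that counts the fall of Cldn4 again. Per array the list median was -0.06 and -0.24 in HEBKO against 0.11, -0.07 and -0.05 in WT. By that median HEBKO 1 lay within the WT range. Psmb11 and Krt5 were below the 40th percentile in every array, Foxn1 was above it in 4 of the 5, and Krt8 was above it in every array. Epcam was 5.56 and 5.83 in HEBKO against 6.15, 6.16 and 6.02 in WT, and so was lower in both HEBKO arrays, as Cldn4 was. The part of epithelial RNA in the fall of Cldn4 was not tested, and in sorted bulk cells fewer cells of a type and less RNA per cell cannot be told apart.

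Promoter windows are shown for Cldn4, F13a1 and Sema7a, called falls whose windows hold an E-box, and for Myzap, whose window holds none of the forms searched. Each is the first window listed for its gene in RefSeq (GRCm38.p6), from 250 bases before to 50 bases after the transcript start, with CAGCTG and with CAGGTG or its complement CACCTG in capitals.
Cldn4 promoter, chr5:134946885-134947184, minus strand: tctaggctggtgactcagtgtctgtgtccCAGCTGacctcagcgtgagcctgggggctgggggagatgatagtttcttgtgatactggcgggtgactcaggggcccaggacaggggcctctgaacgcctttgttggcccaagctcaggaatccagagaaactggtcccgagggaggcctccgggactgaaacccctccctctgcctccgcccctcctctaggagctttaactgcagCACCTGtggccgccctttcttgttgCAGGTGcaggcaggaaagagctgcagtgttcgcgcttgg
F13a1 promoter, chr13:37050195-37050494, minus strand: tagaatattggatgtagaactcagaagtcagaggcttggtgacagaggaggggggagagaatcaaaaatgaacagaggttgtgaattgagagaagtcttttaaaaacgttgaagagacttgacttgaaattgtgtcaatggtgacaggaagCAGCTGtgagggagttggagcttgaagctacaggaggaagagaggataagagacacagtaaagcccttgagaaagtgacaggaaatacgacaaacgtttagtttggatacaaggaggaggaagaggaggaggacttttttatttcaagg
Sema7a promoter, chr9:57939862-57940161, plus strand: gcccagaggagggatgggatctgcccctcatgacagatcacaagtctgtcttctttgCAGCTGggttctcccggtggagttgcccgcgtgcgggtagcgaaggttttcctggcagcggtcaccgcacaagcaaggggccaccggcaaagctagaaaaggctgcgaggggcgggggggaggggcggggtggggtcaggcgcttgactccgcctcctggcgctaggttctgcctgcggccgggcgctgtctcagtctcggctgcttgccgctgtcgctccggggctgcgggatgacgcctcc
Myzap promoter, chr9:71592311-71592610, minus strand: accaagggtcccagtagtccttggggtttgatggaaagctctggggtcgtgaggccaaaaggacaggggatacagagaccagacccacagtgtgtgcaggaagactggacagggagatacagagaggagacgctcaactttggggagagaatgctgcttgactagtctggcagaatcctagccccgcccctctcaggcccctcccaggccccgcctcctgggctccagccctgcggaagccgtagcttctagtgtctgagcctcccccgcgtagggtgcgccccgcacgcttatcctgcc
Both strands were searched, and no other E-box form was. Of 27025 genes with a window, 32.6% held at least 1 of these motifs, and of 10417 tested genes with a window 31% did. Among called falls the share was 18 of 59 (30.5%), and among called rises it was 5 of 28 (17.9%). The falls therefore held these letters about as often as the genes at large, and the windows say nothing of more distant sites or of binding.

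Genes of guanylate-binding proteins, GTPases that interferon induces and that act in defence inside cells, fell as neighbours. Gbp8 was 9.57 and 9.36 in HEBKO against 10.65, 10.63 and 10.60 in WT (-1.17 ± 0.21, adjusted p = 0.0316). Gbp4 was 9.88 and 9.84 in HEBKO against 10.73, 10.71 and 10.76 in WT (-0.87 ± 0.09, adjusted p = 0.00563). Gbp11 was 7.14 and 7.58 in HEBKO against 8.22, 8.27 and 8.23 in WT (-0.88 ± 0.14, adjusted p = 0.0209). In each of the 3 the WT arrays lay close together and both HEBKO arrays lay well below them. They sit within 3 tested genes of one another on chromosome 5 and share much of their sequence, so probes could read more than 1 of them. Gbp9 (-0.41 ± 0.20) and Gbp3 (0.39 ± 0.13) did not pass, and the list of 6 tested Gbp genes had a median of -0.64. Of 24 tested interferon-stimulated genes limma called 0 (4 up and 0 down at an unadjusted p under 0.05), and their median was 0.08. Gbp8 lost its call without HEBKO 1, HEBKO 2, WT 1 or WT 3, and Gbp11 without HEBKO 1, WT 1 or WT 3.

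Falls also included genes of receptors and channels. Il21r, the receptor of interleukin 21, was 8.69 and 8.38 in HEBKO against 9.51, 9.56 and 9.55 in WT, a 2.01-fold fall (-1.01 ± 0.12, adjusted p = 0.00829). It was the 1 gene called among 32 tested cytokine receptor and signalling genes, whose median was -0.08. P2rx1, an ATP-gated cation channel, was 6.36 and 7.26 in HEBKO against 7.85, 8.08 and 7.96 in WT (-1.15 ± 0.20, adjusted p = 0.0293). Scn4b, a subunit of voltage-gated sodium channels, was 6.53 and 6.60 in HEBKO against 7.88, 7.69 and 7.62 in WT (-1.16 ± 0.23, adjusted p = 0.0466). Kcnh2, a voltage-gated potassium channel, was 7.66 and 8.16 in HEBKO against 8.71, 8.65 and 8.71 in WT (-0.78 ± 0.14, adjusted p = 0.0282). HEBKO 1 was the lower array for P2rx1 and Kcnh2, while Scn4b was alike in both. These 3 were the calls among 24 tested ion channel and purinergic receptor genes, with a list median of -0.10. Pvr, a ligand of the receptors CD226 and TIGIT, was 9.36 and 9.80 in HEBKO against 10.55, 10.57 and 10.57 in WT (-0.98 ± 0.14, adjusted p = 0.0113), and its neighbour Igsf23, an immunoglobulin superfamily gene, fell by 0.89 ± 0.12 on the log2 scale. Il17re, a chain of the interleukin 17C receptor, fell (-0.93 ± 0.16, adjusted p = 0.0238), as did Itga6, the integrin alpha 6 chain (-0.60 ± 0.11, adjusted p = 0.0341). Pvr and Igsf23 lost their calls without HEBKO 1 or WT 3, and P2rx1, Scn4b, Kcnh2, Il17re and Itga6 without HEBKO 1, WT 1 or WT 3, with Scn4b, Il17re and Itga6 lost without further arrays as well.

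Falls in transcripts for proteins inside the cell included those of regulators of the actin cytoskeleton, of kinase signals and of stress responses. Fmnl2, a formin that extends actin filaments, was 7.14 and 7.25 in HEBKO against 8.49, 8.77 and 8.53 in WT, a 2.64-fold fall (-1.40 ± 0.17, adjusted p = 0.00829). Myo10, an unconventional myosin of filopodia, fell by 0.82 ± 0.13, Mtss1, which binds actin and curved membrane, by 0.81 ± 0.11, and Abi3, which belongs to the WAVE complex of actin branching, by 0.77 ± 0.13. The HEBKO arrays lay close together for Fmnl2 and Mtss1. Map3k8, a kinase above the ERK pathway, was 6.28 and 6.79 in HEBKO against 7.54, 7.66 and 7.56 in WT (-1.05 ± 0.14, adjusted p = 0.0089). Lrig1, which restrains growth factor receptors, was 7.70 and 8.12 in HEBKO against 9.19, 8.94 and 9.09 in WT (-1.16 ± 0.16, adjusted p = 0.0103). For both, HEBKO 1 was the lower array. Cbfa2t3, a transcriptional corepressor known to bind E proteins, was 7.67 and 7.87 in HEBKO against 8.70, 8.89 and 8.60 in WT (-0.96 ± 0.14, adjusted p = 0.0153). Xbp1 (-0.75 ± 0.16, adjusted p = 0.0483), a transcription factor of the unfolded protein response, and Eif2ak3 (-0.77 ± 0.15, adjusted p = 0.0397), the kinase PERK of the same response, were lower mainly in HEBKO 1 (9.15 and 9.64 against 10.05 to 10.27 for Xbp1, and 8.93 and 9.40 against 9.80 to 10.06 for Eif2ak3, in HEBKO 1 and 2 against WT). Lrig1 lost its call without HEBKO 1 or WT 3, Abi3 without HEBKO 1, WT 1 or WT 3, and Myo10 without HEBKO 1, HEBKO 2 or WT 3. Xbp1 kept its call in 1 of the 10 fits that left out an array, the one without HEBKO 2, and Eif2ak3 lost its call without HEBKO 1, WT 1, WT 3 or any DKO array.

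Bcl2l1, the gene of the anti-apoptotic protein Bcl-xL, was 9.76 and 10.08 in HEBKO against 10.57, 10.51 and 10.65 in WT (-0.65 ± 0.12, adjusted p = 0.0316), a call lost without HEBKO 1, WT 1, WT 3, DKO 2 or DKO 3. It was the 1 called among 14 tested genes of the Bcl-2 family, whose median was -0.07. Among enzymes, Car2, a carbonic anhydrase, was 5.72 and 5.65 in HEBKO against 6.70, 7.18 and 7.40 in WT (-1.41 ± 0.17, adjusted p = 0.00829). Both HEBKO values of Car2 lie under the filter level, as do those of Kmo, an enzyme of tryptophan breakdown (-0.75 ± 0.13), so these falls too can be larger than measured. Kmo lost its call without HEBKO 1, HEBKO 2, WT 3 or DKO 2. Car2 is also in the list of erythroid markers, where the other 3 tested genes were not called and the summed intensity over 7 genes was 1509 and 1281 in HEBKO against 1091 to 1328 in WT. Hs6st1, which sulfates heparan sulfate, had nearly the same level in both HEBKO arrays (8.61 and 8.62), against 9.53, 9.57 and 9.55 in WT (-0.93 ± 0.11, adjusted p = 0.00829).

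MicroRNA precursors did not separate the groups as a list, and mature products are shown because 2 of the precursors below share a seed. The arrays held probe sets for 300 precursors, of which 115 were tested. Of these 1 fell and 114 did not pass, where 0.632% of all tested genes were called down. At an unadjusted p under 0.05 there were 18 lower and 3 higher, where 6.49% of all tested genes were lower and 10.2% higher. The median of the list was -0.12. Per array the median was -0.07 and -0.19 in HEBKO against 0.14, -0.15 and -0.01 in WT 1 to 3. HEBKO 1 thus lay within the WT range. Mir142, a precursor abundant in blood cells, was 7.0 and 6.85 in HEBKO against 7.60, 7.77 and 8.38 in WT (-0.99 ± 0.20, adjusted p = 0.0473). WT 3 was high for Mir142, and the call was lost without any 1 of HEBKO 1, HEBKO 2, WT 1, WT 3 or the DKO arrays. Mir181a-1, whose products tune T cell receptor signals in thymocytes, was 6.93 and 8.10 in HEBKO against 8.38, 9.11 and 9.22 in WT (-1.39 ± 0.35, adjusted p = 0.0911). Mir181b-1, beside it in the genome, was 8.93 and 9.78 in HEBKO against 10.26, 10.54 and 10.58 in WT (-1.11 ± 0.28, adjusted p = 0.0935). Both members of the Mir181 pair were lower in HEBKO 1 than in HEBKO 2 and did not pass. Mature sequences from RefSeq (GRCm38.p6) are given with the seed, bases 2 to 8, in capitals.
mmu-miR-142a-5p: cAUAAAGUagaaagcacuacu
mmu-miR-142a-3p: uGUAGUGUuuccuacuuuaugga
mmu-miR-181a-5p: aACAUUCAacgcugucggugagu
mmu-miR-181b-5p: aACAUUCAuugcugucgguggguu
The 5p products of the Mir181 precursors share the seed ACAUUCA, and the products of Mir142 share none with them. A probe set reads a precursor or its host transcript, so the level of the mature microRNA was not measured.

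Among the rises stood Ms4a6b and Gimap7, of the list of mature single-positive and egress genes. The median of that list was raised in HEBKO 1 (0.45) and not in HEBKO 2 (-0.08). Vim, an intermediate filament protein, was 11.33 and 10.89 in HEBKO against 9.96, 10.23 and 9.73 in WT, a 2.2-fold rise (1.13 ± 0.21, adjusted p = 0.0341). Ms4a6b, a membrane protein of T cells, was 10.13 and 9.77 in HEBKO against 8.84, 9.12 and 8.88 in WT (1.00 ± 0.16, adjusted p = 0.0193). Gimap7, a GTPase of immune cells, was 8.17 and 7.74 in HEBKO against 7.03, 7.24 and 6.88 in WT (0.90 ± 0.14, adjusted p = 0.0193). In all 3 HEBKO 1 was the higher array and HEBKO 2 still lay above every WT array. Gpr65, a receptor that senses protons, was 8.77 and 8.24 in HEBKO against 7.33, 7.66 and 7.24 in WT (1.09 ± 0.19, adjusted p = 0.0282). Cpm, a carboxypeptidase of the cell surface, was 7.59 and 6.96 in HEBKO against 6.25, 6.36 and 6.06 in WT (1.05 ± 0.17, adjusted p = 0.0193). Atp8b4, a phospholipid flippase, was 6.79 and 6.48 in HEBKO against 5.81, 5.36 and 5.44 in WT (1.10 ± 0.14, adjusted p = 0.0089). In WT, Atp8b4 was under the filter level in each of the 3 arrays and Cpm in 1 of them, so both rises can be larger than measured. Pde3b, a phosphodiesterase that lowers cyclic AMP, was the same in both HEBKO arrays (9.65 and 9.65), against 8.74, 8.99 and 8.88 in WT (0.78 ± 0.13, adjusted p = 0.0282). Vim, Ms4a6b, Gimap7, Gpr65, Cpm and Pde3b all lost their calls without HEBKO 1, WT 1 or WT 3, and Vim and Pde3b without further arrays.

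Rises also included Ikzf2 among transcription factors and Cdk4 and Cdkn2c among cell cycle genes. Ikzf2, which encodes the zinc finger protein Helios, was 10.76 and 10.39 in HEBKO against 9.88, 9.94 and 9.94 in WT (0.65 ± 0.11, adjusted p = 0.0282). It was the 1 call among 26 tested T-lineage transcription factors, of which 1 was higher and 5 lower at an unadjusted p under 0.05, with a median of -0.15, and the 1 call among 10 tested markers of regulatory T cells, whose median was 0.00. The summed intensity over 11 regulatory T cell markers was 3033 and 2741 in HEBKO against 2267 to 2517 in WT. That sum counts the rise of Ikzf2 again. The list medians, 0.08 and -0.05 in HEBKO against 0.09, 0.01 and -0.06 in WT, lay within the WT range. Foxp3, which defines that lineage, was 5.87 and 6.09 in HEBKO against 6.11 to 6.41 in WT. Cdk4, a kinase of the step into S phase, was 11.26 and 11.03 in HEBKO against 10.46, 10.57 and 10.21 in WT (0.73 ± 0.15, adjusted p = 0.0483). Cdkn2c, an inhibitor of that kinase, was 9.66 and 9.46 in HEBKO against 8.95, 8.91 and 8.92 in WT (0.63 ± 0.11, adjusted p = 0.0293). The kinase gene and the inhibitor gene both rose, and they were the 2 calls among 15 tested genes of D cyclins, their kinases and inhibitors, whose median was 0.02. Ripk3, a kinase of necroptosis, rose by 0.50 ± 0.10 and kept its call in 1 of the 10 fits that left out an array. Ikzf2 and Cdkn2c lost their calls without HEBKO 1, WT 1, WT 3 or DKO 2, and Cdk4 and Ripk3 without those and further arrays.

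Other rises included genes of metabolism, respiration and ribosome assembly. Shmt2, which makes one-carbon units from serine in mitochondria, was 8.71 and 8.50 in HEBKO against 7.68, 7.93 and 7.51 in WT (0.90 ± 0.17, adjusted p = 0.0316). Cox7b, a subunit of respiratory complex IV, was 9.73 and 9.58 in HEBKO against 8.66, 9.01 and 8.43 in WT (0.95 ± 0.16, adjusted p = 0.0281). Ndufc2, a subunit of complex I, was 10.86 and 10.71 in HEBKO against 9.76, 10.21 and 9.58 in WT (0.94 ± 0.17, adjusted p = 0.0341). For these 3, WT 2 was the highest WT array and lay nearest to HEBKO. Nop10, of the particles that modify ribosomal RNA, rose by 0.97 ± 0.15, the small nucleolar RNA gene Snord14e by 0.91 ± 0.18, Slc37a4, which carries glucose 6-phosphate into the endoplasmic reticulum, by 0.94 ± 0.19, Aldh2, a mitochondrial aldehyde dehydrogenase, by 0.84 ± 0.14, and Apex1, a base excision repair nuclease, by 0.65 ± 0.13. Slc16a1, a lactate and pyruvate transporter, was 11.37 and 11.58 in HEBKO against 10.86, 10.94 and 10.92 in WT (0.56 ± 0.10, adjusted p = 0.0316). Shmt2, Cox7b, Ndufc2, Nop10, Slc37a4, Snord14e and Slc16a1 lost their calls without HEBKO 1, HEBKO 2, WT 1 or WT 3, Aldh2 without HEBKO 1, WT 1 or WT 3, and Apex1 without HEBKO 1, WT 1, WT 3 or any E2AKO or DKO array. Shmt2, Ndufc2, Slc37a4, Snord14e and Slc16a1 were also lost without DKO 2.

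The lists of growth genes leaned upward although few members passed the test. At an unadjusted p under 0.05, 10.2% of all tested genes were higher and 6.49% lower. Of 43 tested genes of S phase and DNA replication 0 were called by limma, and 31 were higher and 0 lower at an unadjusted p under 0.05. Their median difference was 0.53, beside -0.0029 over all tested genes, and per array the median was 0.52 and 0.49 in HEBKO 1 and 2 against -0.15, 0.26 and -0.09 in WT 1 to 3. Gins1, a subunit of the replicative helicase, was 7.95 and 7.84 in HEBKO against 6.78, 7.12 and 6.44 in WT (1.11 ± 0.25, adjusted p = 0.0689). Prim1, the DNA primase, was 9.61 and 9.73 in HEBKO against 8.44, 9.24 and 8.87 in WT (0.82 ± 0.20, adjusted p = 0.0909), and Rfc4, of the clamp loader, had a difference of 0.85 ± 0.24. The HEBKO arrays were alike in this list and lay above all WT arrays, of which WT 2 stood nearest. Of 32 tested mitosis genes 0 were called, with 11 higher and 0 lower at an unadjusted p under 0.05, and the median was 0.30 and 0.55 in HEBKO against -0.19, 0.27 and -0.08 in WT, so HEBKO 1 was close to WT 2. The summed intensity of the 43 S-phase genes was 33661, 33470 and 26371 in DKO, 44320 and 43370 in HEBKO, 35845 and 24110 in E2AKO and 27516, 37210 and 28428 in WT. Xist was high in DKO 1, DKO 3, HEBKO 1, E2AKO 1 and WT 2. Of these, WT 2, E2AKO 1, HEBKO 1 and DKO 1 had the highest sums of their groups. HEBKO 1 and DKO 1 were close to the Xist-low HEBKO 2 and DKO 2, and DKO 3 was the lowest of its group. The part of sex in these sums was not tested. With a term for sex in the fit the median of the list was 0.50.

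Genes for the machinery of translation, protein breakdown and respiration leaned the same way. Of 57 tested cytosolic ribosomal protein genes 0 were called, 38 were higher and 0 lower at an unadjusted p under 0.05, and the median was 0.45 and 0.29 in HEBKO against -0.09, 0.13 and -0.06 in WT. Among 81 respiratory chain genes Cox7b and Ndufc2 rose, 49 were higher and 0 lower at that unadjusted p, and the median was 0.37 and 0.35 in HEBKO against -0.07, 0.14 and -0.08 in WT. Of 38 proteasome genes 0 were called and 24 were higher, with a median of 0.30 and 0.41 in HEBKO against -0.16, 0.24 and -0.06 in WT. Each list was above WT in both HEBKO arrays, and in each WT 2 was the WT array nearest to them. Among 77 mitochondrial ribosomal protein genes Mrps18b rose (0.56 ± 0.12, adjusted p = 0.0483), with a list median of 0.17 and 0.31 in HEBKO against -0.15, 0.16 and -0.01 in WT, so HEBKO 1 did not separate from WT 2. Of 18 serine, folate and one-carbon genes Shmt2 rose and 15 were higher at the unadjusted p, with a median of 0.46. Its members Psat1, of serine synthesis (0.90 ± 0.20, adjusted p = 0.062), and Mthfd1, of the folate cycle (0.80), did not pass. Of 16 cholesterol genes 0 were called and 8 were higher, with Idi1 at 0.90 ± 0.30, and of 15 glycolysis and glucose uptake genes Slc16a1 rose, with Tpi1 at 0.87 ± 0.25. The medians of the S-phase, mitosis, ribosomal, proteasome, respiratory and one-carbon lists stayed above 0 in every alternative run. For the runs that left out 1 array this adds little, since both HEBKO medians lay above every WT median in these lists. In mitosis the margin was small, with 0.30 in HEBKO 1 against 0.27 in WT 2.

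**Figure D3:**
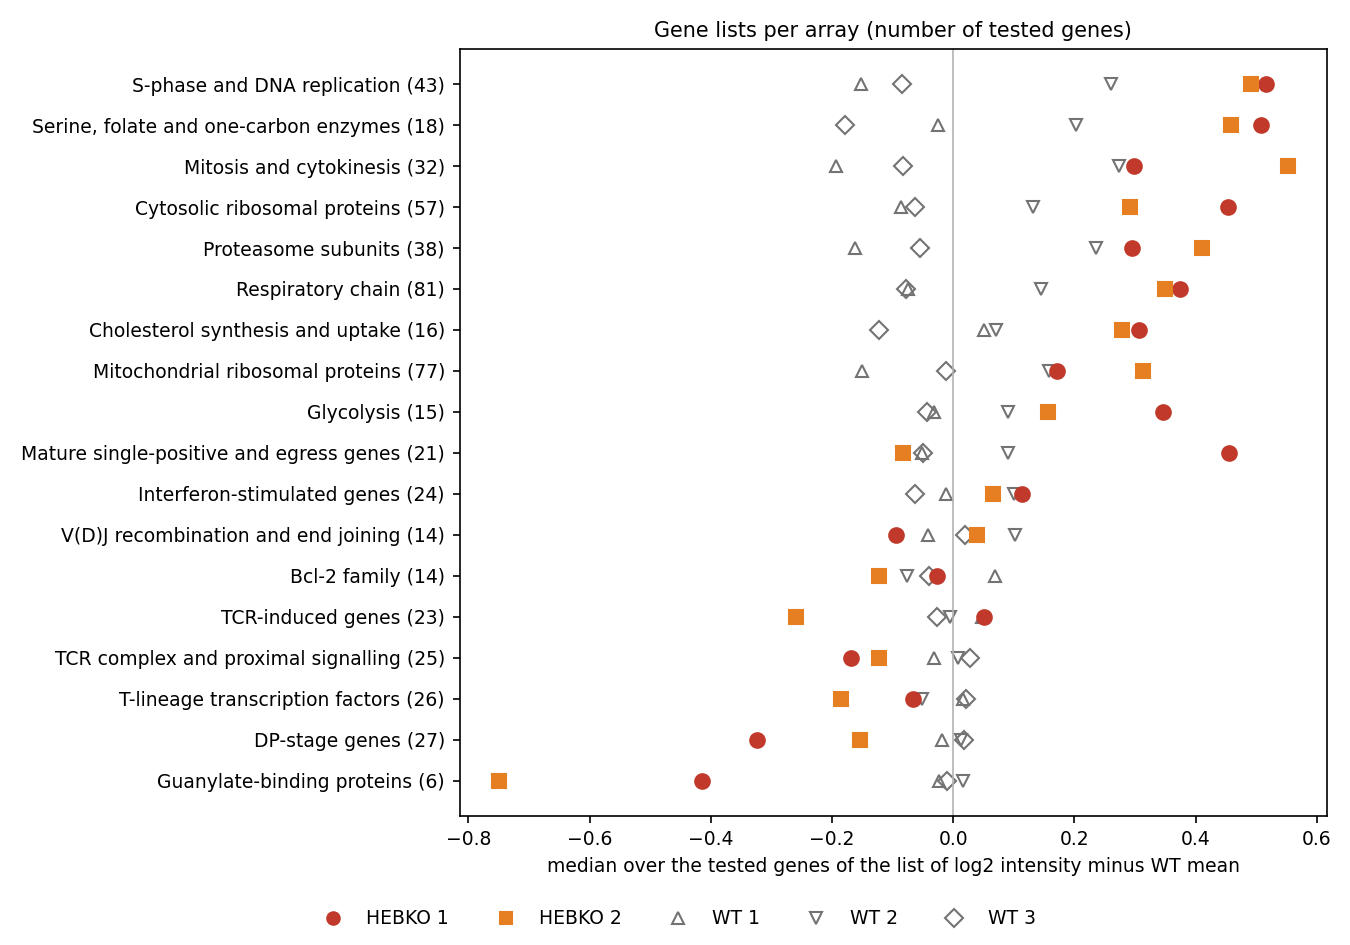
Median over the tested genes of 18 lists of log2 intensity minus the WT mean (x axis), for HEBKO 1 (circles), HEBKO 2 (squares) and WT 1 to 3 (open symbols), with the number of tested genes beside each list (y axis). The growth lists lie right of the WT arrays in HEBKO (0.52 and 0.49 for S phase), the guanylate-binding proteins lie left of them, and the mature single-positive list is high in HEBKO 1 alone (0.45, against -0.08 in HEBKO 2).

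The list of DP-stage genes leaned downward in HEBKO, more so in HEBKO 1. This list was chosen with earlier results of these data known, so its median is no independent test of DP identity. Of 27 tested DP-stage genes Plxnd1 fell and 26 did not pass, with 11 lower and 2 higher at an unadjusted p under 0.05, and the median was -0.32 and -0.15 in HEBKO against -0.02, 0.01 and 0.02 in WT. Cd4 was 11.34 and 11.77 in HEBKO against 12.27, 12.22 and 12.19 in WT (-0.67 ± 0.15, adjusted p = 0.0718). Rag1, the recombinase subunit, was 12.98 and 13.53 in HEBKO against 13.64, 13.70 and 13.72 in WT (-0.43 ± 0.18, adjusted p = 0.264), and Rag2 was 9.93 and 10.80 in HEBKO against 10.81, 10.91 and 10.90 in WT (-0.51 ± 0.25, adjusted p = 0.335). Both Rag genes were low in HEBKO 1, while in HEBKO 2 they lay just below the WT range. The coreceptor gene Cd8a was 12.83 and 13.13 in HEBKO against 13.09 to 13.10 in WT, so its groups overlapped. Aqp11, a water channel, was 9.97 and 8.76 in HEBKO against 11.03, 11.19 and 11.06 in WT (-1.73 ± 0.46, adjusted p = 0.104). Dhrs3, which reduces retinal, was 9.32 and 10.61 in HEBKO against 11.14, 11.22 and 11.18 in WT (-1.22 ± 0.32, adjusted p = 0.1). Slc7a11, the cystine transporter, was 8.68 and 8.95 in HEBKO against 9.66, 10.14 and 9.99 in WT (-1.12 ± 0.33, adjusted p = 0.131). These 3 had larger mean differences than most called genes and did not pass. Ets2 (-0.63 ± 0.18) and Arpp21 (-0.64 ± 0.20) did not pass either.

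Lists of mature cells and of receptor signals separated the HEBKO arrays. Of 21 tested mature single-positive and egress genes Ms4a6b and Gimap7 rose, and the median was 0.45 in HEBKO 1 and -0.08 in HEBKO 2 against -0.05, 0.09 and -0.05 in WT, so it was raised in HEBKO 1 only. Gimap3, a GTPase of lymphocyte survival, was 7.79 and 6.60 in HEBKO against 5.92, 6.22 and 5.78 in WT (1.22 ± 0.29, adjusted p = 0.0771). Gimap4 was 8.95 and 7.39 in HEBKO against 6.85, 7.50 and 7.10 in WT (1.02 ± 0.43, adjusted p = 0.264), so HEBKO 2 lay within the WT range. Of 23 tested targets of T cell receptor signalling limma called 0, 2 were higher and 5 lower at an unadjusted p under 0.05, and the median was 0.05 in HEBKO 1 and -0.26 in HEBKO 2. Id3 was 8.66 and 7.48 in HEBKO against 8.12, 8.33 and 8.01 in WT, above the WT range in HEBKO 1 and below it in HEBKO 2 (-0.08 ± 0.26, adjusted p = 0.916). Of 25 genes of the T cell receptor complex and its proximal signalling limma called 0 (0 up and 6 down at an unadjusted p under 0.05), with a median of -0.17 and -0.12 in HEBKO.

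Across all genes, 59 were at least 2-fold apart between HEBKO 1 and HEBKO 2, against 29, 4 and 10 in the pairs of WT arrays, 41 in the E2AKO pair and 26 to 39 in the DKO pairs. By the standard deviation of the log2 difference, WT 1 and WT 2 were the widest pair (0.318, against 0.281 in the HEBKO pair). Apart from Xist and the genes of the Y chromosome, the widest gaps were in Trim12a and Trbv1. Trim12a, of the tripartite motif family, was 9.93 in HEBKO 1 and 6.08 in HEBKO 2 against 10.05, 10.38 and 10.38 in WT, so HEBKO 2 alone was low. Trbv1, a segment of the T cell receptor beta locus, was 7.02 in HEBKO 1 and 10.68 in HEBKO 2 against 10.12, 10.19 and 9.94 in WT, so HEBKO 1 alone was low. Ctsl, a lysosomal protease, was 9.98 in HEBKO 1 and 12.33 in HEBKO 2 against 10.14, 10.53 and 10.44 in WT. Higher in HEBKO 1 were Ccr4, a chemokine receptor (10.17 and 8.65 against 8.77 to 8.88 in WT), and Cd53, a tetraspanin of leukocytes (11.36 and 9.85 against 9.56 to 9.76 in WT). These genes were chosen for the gap and carry no test.

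**Figure D4:**
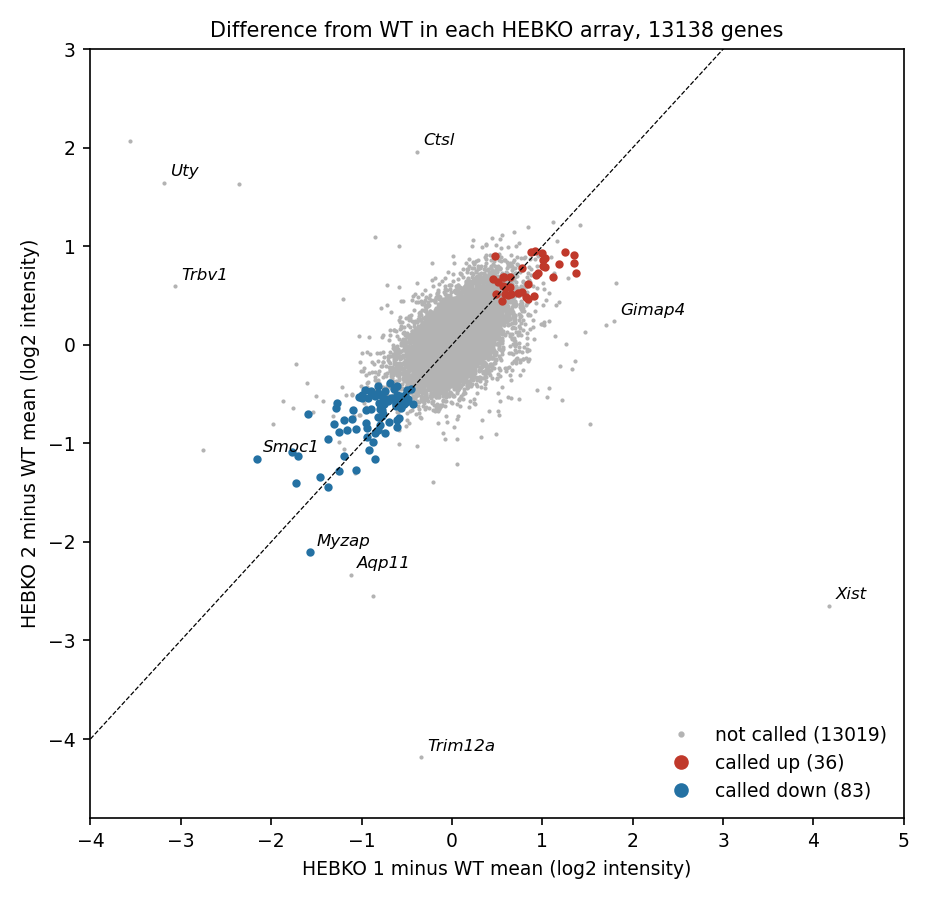
Difference from the WT mean (log2) of each of 13138 tested genes in HEBKO 1 (x axis) and HEBKO 2 (y axis), with called rises and called falls in colour and the line of equal difference dashed. The called genes lie near that line and on its outer parts, while Xist, Uty, Trim12a, Trbv1 and Ctsl lie far from it, with 1 HEBKO array apart from the other.

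Whether these changes differ from those of E2A loss was tested directly, since calls in 1 knockout and not in another do not show it. HEBKO and E2AKO differed in 5 of 13138 genes (0.0381%), with 4 lower (0.0304%) and 1 higher (0.00761%) in HEBKO. Myzap was 6.33 and 5.79 in HEBKO against 7.94 and 8.07 in E2AKO (-1.94 ± 0.18, adjusted p = 0.00273). Fmnl2 was 7.14 and 7.25 in HEBKO against 8.70 and 8.92 in E2AKO (-1.62 ± 0.19, adjusted p = 0.0168), Lrig1 was 7.70 and 8.12 in HEBKO against 9.07 and 9.24 in E2AKO (-1.24 ± 0.17, adjusted p = 0.0418), and Gbp4 was 9.88 and 9.84 in HEBKO against 10.63 and 10.56 in E2AKO (-0.74 ± 0.10, adjusted p = 0.0418). Atp8b4 was the 1 higher gene, at 6.79 and 6.48 in HEBKO against 5.54 and 5.55 in E2AKO (1.09 ± 0.15, adjusted p = 0.0418). Both E2AKO values of Atp8b4 lay under the filter level, as did its WT values. It passed the filter only through the HEBKO and DKO arrays, where it was high. For the other called genes this fit did not show a difference between the 2 knockouts, as for Cldn4, which was 7.25 and 7.55 in HEBKO against 7.55 and 7.86 in E2AKO (-0.30 ± 0.15, adjusted p = 0.357). Other fits of HEBKO vs E2AKO called more genes, with 17 when a term for sex was added and 22 with trend and robust moderation. The count was 0 without E2AKO 2, 1 without E2AKO 1 or HEBKO 1, 2 without WT 3 or DKO 2 and 55 without HEBKO 2.

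Set against loss of both factors, some of these genes stood much closer to WT after loss of HEB alone, and others stood farther from it. DKO and HEBKO differed in 477 genes (3.63%), and the effect of HEB loss itself differed between E2A-deficient and E2A-sufficient cells in 83 (0.632%). F13a1 was 7.92, 8.03 and 7.66 in DKO against 9.88 and 10.13 in HEBKO (DKO minus HEBKO -2.13 ± 0.14, adjusted p = 1.27e-05). Plxnd1 was 8.05, 8.40 and 7.95 in DKO against 9.76 and 10.12 in HEBKO (-1.81 ± 0.14, adjusted p = 3.77e-05), and Sema7a was 7.71, 7.72 and 7.45 in DKO against 9.01 and 9.15 in HEBKO (-1.45 ± 0.11, adjusted p = 3.19e-05). Pde3b was 11.29, 11.35 and 11.48 in DKO against 9.65 and 9.65 in HEBKO (1.73 ± 0.13, adjusted p = 3.76e-05), and Atp8b4 was 8.43, 8.39 and 8.32 in DKO against 6.79 and 6.48 in HEBKO (1.74 ± 0.14, adjusted p = 4.77e-05). In these 5 genes DKO lay far beyond HEBKO in the same direction from WT. Mir142 was 8.15, 8.18 and 8.14 in DKO against 7.0 and 6.85 in HEBKO (1.23 ± 0.20, adjusted p = 0.00561). Tdrp, named for testis development, was 8.11, 8.10 and 8.47 in DKO and 7.12 and 7.28 in HEBKO against 8.15, 7.93 and 8.13 in WT (DKO minus HEBKO 1.03 ± 0.13, adjusted p = 0.00116). Slc16a1 was 10.89, 10.98 and 10.95 in DKO against 11.37 and 11.58 in HEBKO (-0.53 ± 0.10, adjusted p = 0.0142). In Mir142, Tdrp and Slc16a1 the DKO arrays lay at the level of WT or close to it. The limma test of whether HEB loss acts differently with and without E2A passed for Tdrp (adjusted p = 0.0179). It did not pass for Mir142 (adjusted p = 0.111) or Slc16a1 (adjusted p = 0.234). Ikzf2, at 10.15, 10.12 and 10.09 in DKO against 10.76 and 10.39 in HEBKO, did not pass (-0.45 ± 0.11, adjusted p = 0.0525). Myzap (-0.05 ± 0.17, adjusted p = 0.959) and Gbp4 (0.10 ± 0.09, adjusted p = 0.735) differed between DKO and HEBKO by no more than about their standard error.

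**Figure D5:**
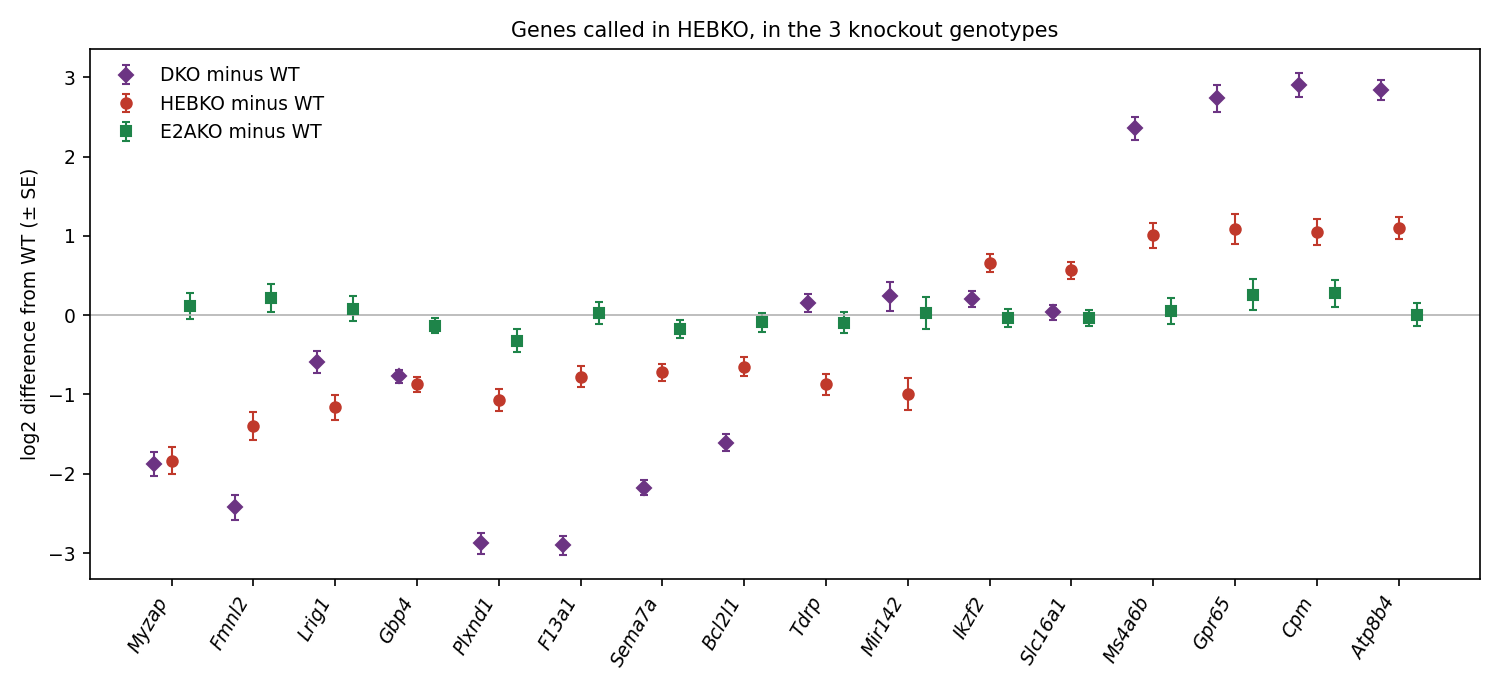
Difference from WT (log2, y axis) of 16 genes called in HEBKO (x axis), in DKO (diamonds), HEBKO (circles) and E2AKO (squares), with the standard error of the fit as bars. Plxnd1, F13a1, Cpm and Atp8b4 lie much farther from 0 in DKO than in HEBKO, Myzap and Gbp4 lie at similar depth in both, and Tdrp, Mir142, Ikzf2 and Slc16a1 are apart from 0 in HEBKO and near it in DKO.

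The called genes were spread over the chromosomes. On chromosome 9, which carries Tcf12, 9 of 732 tested genes were called (1.23%), beside 0.906% of all. Of the 119 called genes, 10 pairs lay within 3 tested genes of each other, among them Gbp8 with Gbp4, Gbp4 with Gbp11, Pvr with Igsf23, Xrra1 with Rnf169 and Phospho1 with Abi3, and in all 10 pairs both members fell. These pairs were picked out for their position after the values were seen.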

How the data were processed

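The authors deposited 1 table of linear probe set intensities for 10 Affymetrix whole-transcript mouse arrays, made by RMA (background correction, quantile normalisation and probe summary) per the submitters' processing notes. Scanner files were not used. Of 34760 probe sets, 21640 carry 1 gene symbol in the platform annotation and name 19937 genes. Values were put on the log2 scale, the probe set with the highest mean stood for its gene, and 13138 genes above the 40th percentile (6.03 to 6.13) in 2 or more arrays were tested. limma 3.58.1 (R 4.3.3) fitted 4 genotype means to all 10 arrays with moderated variances (6 residual and 5.68 prior degrees of freedom). P-values were Benjamini-Hochberg adjusted over all tested genes, with 0.05 as the threshold, and each ± is a standard error of the fit. The number of arrays limits the precision, and p-values measure the spread between individual mice. The fit was tested on simulated data. Genes were named from a set given by a rule: the E and Id genes, up to the 40 largest called falls and the 36 largest called rises, up to 6 members with the largest change per list, fixed DP markers, the genes most apart between the HEBKO arrays, and those with the smallest adjusted p in the direct contrasts. The genes and lists were chosen with earlier results of these data known. Alternatives changed the filter, normalisation, moderation, arrays and covariates.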

Additional observations from a re-analysis of the deposited data

Results flagged for a closer look

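For the called genes below, the effect of HEB loss differed between E2A-deficient cells (DKO minus E2AKO) and E2A-sufficient cells (HEBKO minus WT) in a limma test of the difference itself. Each value is the log2 effect in E2A-deficient cells minus that in E2A-sufficient cells. Among falls it was -2.16 for F13a1 (adjusted p = 0.000759), -1.49 for Plxnd1 (0.00595), -1.27 for Sema7a (0.00326), -0.95 for Atp1b1, of the sodium pump (0.0137), and -0.87 for Bcl2l1 (0.0464), so these fell by more where E2A was missing too. Tdrp, at 1.12 (0.0179), fell in E2A-sufficient cells and not in E2A-deficient ones. Among rises it was 1.73 for Atp8b4 (0.00224), 1.57 for Cpm (0.00951), 1.54 for Pde3b (0.00326), 1.39 for Gpr65 (0.0456), 1.30 for Gm2a, a lysosomal lipid-binding protein (0.00874), and 1.30 for Ms4a6b (0.023), so these rose by more where E2A was missing too. The test called 83 genes, against 27 without E2AKO 1.

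Probe sets outside the gene table also carried calls. When all probe sets above the filter were tested together, 10 of 7288 with no gene symbol passed in HEBKO against WT (2 up, 8 down), where 1 passed in E2AKO against WT. Of 785 with several symbols 6 passed (2 up, 4 down), where 0 passed in E2AKO against WT. In the same fit 15 of 14235 probe sets with 1 symbol passed (2 up, 13 down). Which transcripts the unnamed probe sets read was not analysed here.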

How the results depend on the processing

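Of the 119 called genes, 109 had a value in all 23 alternatives run, the other genes being removed by the 60th percentile filter, and none changed direction where tested. For the 10 alternatives that left out an array this follows from groups that do not overlap. The count of calls in HEBKO vs WT was 73 with arrays shifted to 1 median (43.8% rises, against 30.3% as reported), 515 with array weights (59.4% rises), 36 with only HEBKO and WT arrays, 5 for a minimum change of 1.2-fold, 21 at 2-fold or more, 15 among probe sets with 1 symbol when every probe set was tested together (chosen after seeing the data), and 2 to 496 when 1 array was left out (2 without HEBKO 1, 496 without WT 2). HEBKO vs E2AKO gave 5 as reported, 3 with arrays shifted to 1 median, 22 with trend and robust moderation, 1 for a minimum of 1.2-fold, 17 with a sex term, 10 with 16 added before the log, and 0 to 55 without 1 array. DKO vs HEBKO gave 477 as reported, 139 for a minimum of 1.2-fold, 129 at 2-fold or more, and 194 to 499 without 1 array. The test of HEB loss with and without E2A gave 83 as reported, 43 for a minimum of 1.2-fold, and 27 to 122 without 1 array. Values with no call that turned sign were Cd8a (-0.26 to 0.0311 without 1 array), Id3 (0.0068 with array weights, -0.67 to 0.51 without 1 array) and Gbp9 (-0.84 to 0.021 without 1 array). The cause of these shifts was not tested.

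The replicate numbers pair no samples by the labels. Deviations from the group mean in same-numbered HEBKO and WT arrays had r of 0.37 and 0.22. The deviations of 2 HEBKO arrays from their own mean are equal and opposite. Arrays of unlike number therefore gave the same values with the sign turned (-0.22 and -0.37). The r values are not independent of each other and cannot show whether arrays were paired. HEBKO 1 and E2AKO 1 were Xist-high and HEBKO 2 and E2AKO 2 were not. With a replicate block, HEBKO vs WT gave 104 calls, 83 of them among the 119, and of the genes described Gbp8, Scn4b, Kcnh2, Xrra1, Mir142, Vim, Gpr65, Cdk4, Gm2a, Snord14e, Apex1, Mrps18b and Ripk3 were no longer called, while HEBKO vs E2AKO gave 86 calls and the test of HEB loss with and without E2A 43. With a sex term, HEBKO vs WT gave 94 calls, 84 of them among the 119, and of the genes described Gramd3, Xbp1, Eif2ak3, Prkcz, Mir142, Slc37a4, Snord14e, Gm2a, Apex1, Mrps18b and Ripk3 were no longer called. With 2 HEBKO arrays, a level is only as firm as their agreement, and genes under the filter level are measured against array background.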

Other observations

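Further calls included genes of cell polarity, membranes and ion transport. Gramd3, a GRAM domain protein, was 7.24 and 7.81 in HEBKO against 8.51, 9.46 and 8.84 in WT (-1.42 ± 0.29, adjusted p = 0.0483), and kept its call in 2 of the 10 fits that left out an array. Strip2, of a phosphatase complex, was 7.76 and 7.54 in HEBKO against 6.82, 6.87 and 6.79 in WT (0.82 ± 0.12, adjusted p = 0.0113), a call lost without HEBKO 1 or WT 3. WT 2 was high for Gramd3, and the WT arrays lay close together for Strip2. Lrrc1, a leucine-rich repeat protein of the Scribble polarity family, was 8.03 and 7.99 in HEBKO against 9.18, 9.39 and 9.27 in WT (-1.27 ± 0.21, adjusted p = 0.0198). Prkcz, an atypical protein kinase C of cell polarity, was 7.62 and 7.57 in HEBKO against 8.40, 8.22 and 8.69 in WT (-0.84 ± 0.16, adjusted p = 0.0395). Atp1b1, a subunit of the sodium pump, was 8.66 and 8.84 in HEBKO against 9.45, 9.45 and 9.27 in WT (-0.64 ± 0.11, adjusted p = 0.0227). For Lrrc1, Prkcz and Atp1b1 both HEBKO arrays were low, and each call was lost without HEBKO 1, WT 1 or WT 3, with Lrrc1 and Prkcz lost without HEBKO 2 as well and Prkcz without either E2AKO array or DKO 3. Gm2a, a lysosomal lipid-binding protein, rose (0.70 ± 0.14, adjusted p = 0.0397) and kept its call in 2 of the 10 fits that left out an array.

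Other gene families moved little. Of 24 tested chemokine receptor, integrin and adhesion genes Gpr65 rose and Itga6 fell, with a median of -0.12. Among 9 tested Schlafen genes limma called 0, with 2 higher and 0 lower at an unadjusted p under 0.05, and the median was -0.07. Of 11 tested markers of the earlier double-negative stage 0 were called, with 0 higher and 1 lower at that p, and the median was -0.06.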
